A study of Yarrowia lipolytica with 8 samples.

Results

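The genes described here are those whose transcript level responded differently to glycerol limitation in a culture with and in a culture without control of its oxygen. For each gene the change after glycerol limitation was taken in both fermentations of *Yarrowia lipolytica*, and the change in the pO2-controlled culture was subtracted from that in the pO2-uncontrolled culture. This response difference was computed on log2(FPKM + 1) for the 6278 of 6394 listed genes with an FPKM of 1 or more in 2 or more libraries of 8, and the other 116 genes were not tested. FPKM is the number of sequenced fragments of a gene divided by the length of its exons and by the depth of the library. A gene was called at an adjusted p under 0.05 and a response difference of at least 2 in size, which is a 4-fold difference between the changes.

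The yeast strain ACA DC 50109 was grown in a nitrogen-limited medium on a mixture of glucose and glycerol. One fermentation had its dissolved oxygen (pO2) held by control and in the other pO2 was left uncontrolled. The nitrogen-limited medium was shared by the groups. The study states that every sequenced sample was taken once nitrogen had become limiting, and the nitrogen left in each culture was not analysed here. Group pO2-1 is the controlled culture before glycerol limitation and pO2-2 the same culture after it. Group pO2-UN-2 is the uncontrolled culture before and pO2-UN-3 after glycerol limitation, and each group has 2 libraries. The sample labels give only the culture. The phases were read from the heading of a supplementary table of the study, which names pO2-1, pO2-2 and pO2-UN-3 and leaves pO2-UN-2 as the sample before limitation. The sources used here do not say whether the pairs came from separate fermentors, and if not, an effect of pO2 control cannot be told apart from a difference between runs. The study reports faster glycerol use and faster growth with pO2 control. Culture age and growth phase at sampling were not compared here and cannot be told apart from an effect of pO2 control.

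*Y. lipolytica* is a strictly aerobic yeast, and its respiratory chain, its fatty acid beta-oxidation in peroxisomes and its synthesis of sterol and heme all use oxygen. Glycerol enters metabolism by phosphorylation and oxidation to dihydroxyacetone phosphate, and when it becomes limiting glucose remains as the sugar source. When good nitrogen or carbon sources are missing, yeasts raise genes that break down amino acids, purines and fats, whereas growth on rich supply goes with high transcript levels for ribosomes. A response difference sets these programmes side by side in both cultures. It is positive where the transcript rose more, or fell less, without pO2 control, and negative where it rose less or fell more.

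The libraries held 5130000 to 5370000 fragments, as read from the size of the smallest steps in FPKM. Between 5901 and 6201 genes per library reached an FPKM of 1, and both pO2-UN-2 libraries, with 5953 and 5901, had the fewest. The spread between replicates differed between the cultures. Its variance was on average 1.197 and 1.254 times that of counting alone in pO2-1 and pO2-2, and 21.1 and 17.2 times in pO2-UN-2 and pO2-UN-3. The study calls the pairs biological replicates. Where a pair shares a culture, p-values measure only the spread between these libraries.

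Of the 6278 genes, 1172 (18.7%) were called. With no minimum on the size, 2395 genes (38.1%) had a more positive and 1824 (29.1%) a more negative response at that adjusted p. The response was more positive without pO2 control for 742 genes (11.8%) and more negative for 430 genes (6.85%). The median response difference over all genes tested was 0.20, with a median SE of 0.21 and a range from -7.36 to 11.60. When the libraries were scaled by median of ratios in place of the deposited FPKM, the median shifted by -0.23 to -0.03, and 627 genes were called more positive and 576 more negative, so that the positive share of the calls fell from 63.3% to 52.1%. Of the calls made with that scaling, 1053 were among the 1172. Changes of single genes and lists below are to be read against that shift. In their own fits, 592 genes rose (9.43%) and 267 fell (4.25%) by at least 2 with pO2 control, and 701 rose (11.2%) and 310 fell (4.94%) without it.

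The called genes took several forms. Among the 742 more positive genes, 356 (48.0%) changed by at least 1 without pO2 control alone, and all of these rose there. Another 202 rose without and fell with pO2 control, each change being at least 1 in size and past the adjusted p of its own culture, which is 3.22% of the genes tested. A further 120 changed by at least 1 with pO2 control alone, where all fell. In 61 genes both cultures moved the same way, and 3 had opposite signs without passing the test in both. Among the 430 more negative genes, 160 (37.2%) changed by at least 1 with pO2 control alone, all upwards, 138 (32.1%) without it alone, all downwards, and 74 the same way in both. The remaining 58 fell without and rose with pO2 control, which is 0.924% of the genes tested. Opposite responses therefore made up 260 of the 1172 called genes (22.2%).

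**Figure D1:**
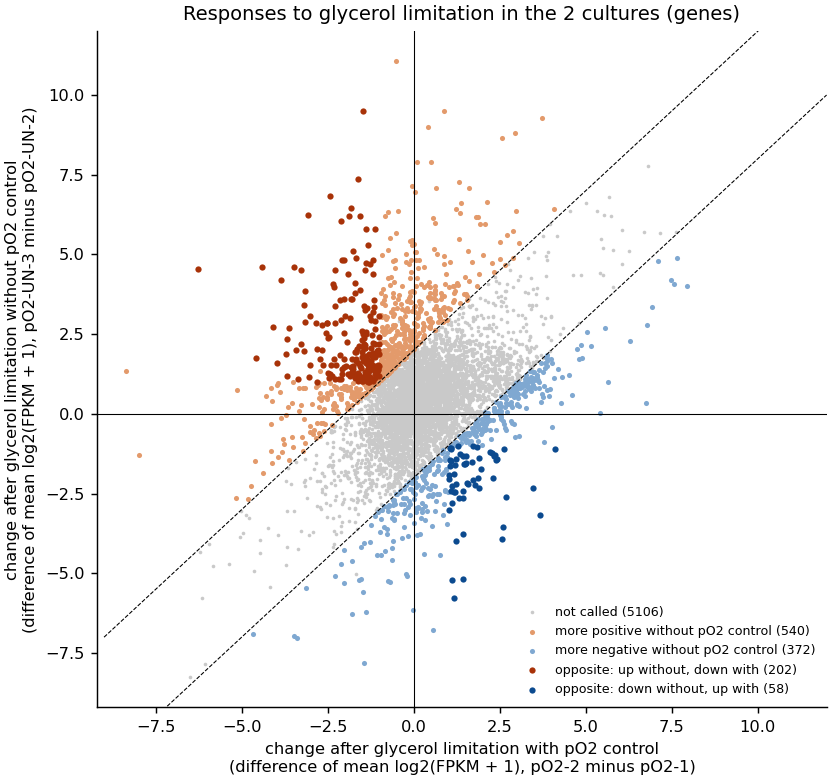
Change of each tested gene after glycerol limitation with pO2 control (x axis) and without it (y axis), as differences of group mean log2(FPKM + 1); dashed lines mark a response difference of 2 in size. The 202 genes that rose without and fell with pO2 control lie in the upper left and the 58 of the opposite kind in the lower right.

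The response difference equals the gap between the cultures after glycerol limitation minus the gap before it, so the same values can be read as levels. For the 742 more positive genes the median gap, uncontrolled minus controlled, was -3.0 on the log2 scale before glycerol limitation and -0.11 after. The gap was larger before than after in 690 of them (93.0%), against 76.4% of all genes tested. For the 430 more negative genes the median gap was 2.83 before and 0.13 after, and it was larger before in 378 (87.9%). A gap of at least 1 stood only before limitation in 537 of the more positive and 311 of the more negative genes, and only after it in 26 and 41. Over all 6278 genes tested the counts were 2539 and 292, so a gap only before limitation was the commoner kind there too. In most called genes the cultures were thus far apart before glycerol limitation and close after it. The group pO2-UN-2 was the lowest of the 4 groups in 661 of the 742 more positive genes (89.1%, against 46.6% of all genes tested) and pO2-1 the highest in 516 (69.5%, against 29.8%). Among the 430 more negative genes pO2-UN-2 was the highest in 267 (62.1%, against 21.6%) and pO2-1 the lowest in 296 (68.8%, against 26.2%). These shares describe how the calls arose and carry no test. In 58 of the more positive genes (7.82%, against 3.65% of all genes tested) both pO2-UN-2 libraries were at or under the FPKM of 3 fragments. There a fitted change depends on the 1 added before the logarithm and is no bound.

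**Figure D2:**
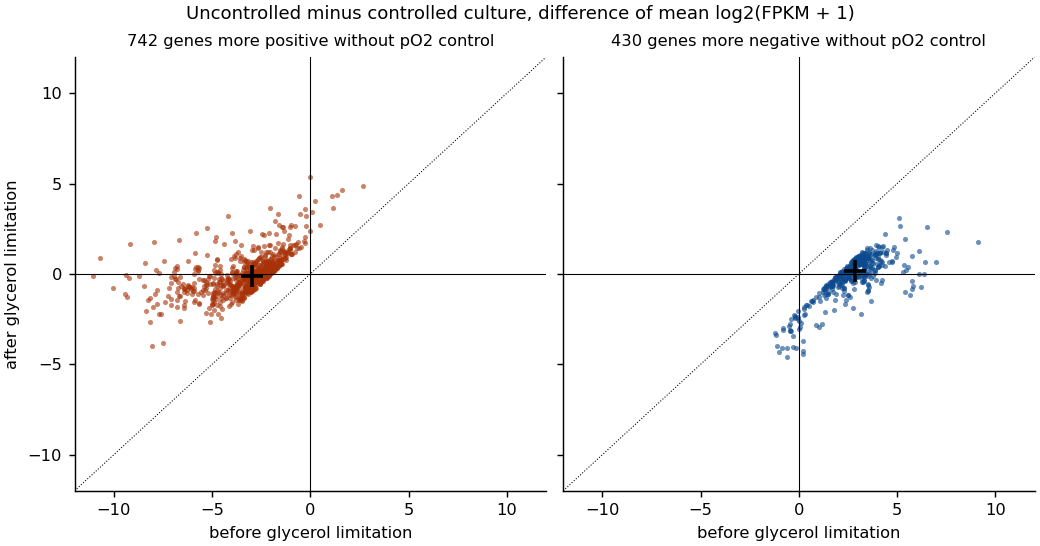
Gap between the cultures (uncontrolled minus controlled, difference of mean log2(FPKM + 1)) before and after glycerol limitation for the 742 more positive and the 430 more negative genes, with the medians as crosses and equal gaps as dotted lines. The medians lie at -3.0 and 2.83 before limitation and near 0, at -0.11 and 0.13, after it.

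The 8 leading genes that rose without and fell with pO2 control did not share a first KEGG hit. Of these genes, 3 have no KEGG hit, so a function common to all 8 cannot be judged from the hits. The first hits of the other 5 are an amino acid transporter, a 5'-nucleotidase, a beta-lactamase-type protein, an aminopeptidase and recyclin-1. The FPKM of YALI0_F09691g (chromosome F, 1326607 to 1329246), which has no KEGG hit, was 1758 and 1754 in pO2-1, 19.1 and 24.3 in pO2-2, 2.26 and 1.86 in pO2-UN-2, and 68.0 and 71.4 in pO2-UN-3. It fell by 6.28 with pO2 control and rose by 4.53 without it, and its response difference was 10.82 ± 0.19 (SE, adjusted p = 2.4e-08). No groups overlapped, and after limitation both cultures lay far below pO2-1 and far above pO2-UN-2.

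A transporter of the AAT family, whose members carry amino acids across the plasma membrane of fungi, was YALI0_C17237g (chromosome C, 2426341 to 2428221). Its FPKM was 996 and 981 in pO2-1, 48.5 and 42.9 in pO2-2, 5.01 and 0.42 in pO2-UN-2, and 54.9 and 88.4 in pO2-UN-3. The response difference was 9.0 ± 0.80 (SE, adjusted p = 3.2e-05) and the pO2-UN-2 replicates were far apart, at 5.01 and 0.42, while pO2-UN-3 lay just above pO2-2. For YALI0_D03465g (chromosome D, 435674 to 436750), with a first hit to 5'-nucleotidase, which frees phosphate from nucleotides, the values were 205 and 208 in pO2-1, 17.2 and 17.7 in pO2-2, 2.67 and 2.64 in pO2-UN-2, and 80.2 and 95.9 in pO2-UN-3 FPKM. This gave a response difference of 8.09 ± 0.17 (SE, adjusted p = 3.9e-08), and here pO2-UN-3 lay above pO2-2 in both libraries.

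YALI0_C22748g (chromosome C, 3049823 to 3051010), with a beta-lactamase-type first hit, had an FPKM of 1315 and 1300.4 in pO2-1, 88.7 and 90.1 in pO2-2, 1.20 and 0.85 in pO2-UN-2, and 31.8 and 41.0 in pO2-UN-3. Its response difference was 8.06 ± 0.20 (SE, adjusted p = 9.5e-08). The aminopeptidase gene YALI0_D23309g, whose product removes amino acids from the ends of peptides, stood at 419.8 and 419 in pO2-1, 44.7 and 45.6 in pO2-2, 2.48 and 1.68 in pO2-UN-2, and 34.6 and 29.1 in pO2-UN-3 FPKM and had a response difference of 6.61 ± 0.21 (SE, adjusted p = 3.0e-07). In both genes the controlled culture stayed above the uncontrolled one at either time.

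YALI0_D06149g, whose first hit is recyclin-1, an F-box protein of the secretory pathway in *Saccharomyces cerevisiae*, had FPKM values of 896 and 864 in pO2-1, 104 and 102 in pO2-2, 0.44 and 0.22 in pO2-UN-2, and 69.3 and 139 in pO2-UN-3. It differed by 9.31 ± 0.39 (SE, adjusted p = 8.7e-07). The remaining leaders of this kind, YALI0_C18491g and YALI0_F13959g, have no KEGG hit. The study names YALI0_C18491g in a list of transport proteins that includes oligopeptide transporters. YALI0_C18491g stood at 1008 and 993 in pO2-1, 110.0 and 110.3 in pO2-2, 16.0 and 16.7 in pO2-UN-2, and 229 and 272 in pO2-UN-3 FPKM, with a response difference of 7.03 ± 0.14 (SE, adjusted p = 3.4e-08). YALI0_F13959g was less even, with 93.2 and 21.0 FPKM in the pO2-UN-3 pair, and its response difference was 7.81 ± 0.82 (SE, adjusted p = 8.2e-05).

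Genes of the opposite kind, which fell without and rose with pO2 control, included enzymes of sulfur and serine metabolism and an antioxidant enzyme. The largest was YALI0_A19426g (chromosome A, 2086139 to 2086807), a peroxiredoxin by its first hit, an enzyme that reduces hydrogen peroxide and organic peroxides. Its FPKM was 109 and 112 in pO2-1, 1409 and 1425 in pO2-2, 5766 and 5364 in pO2-UN-2, and 626 and 613 in pO2-UN-3, so that it rose by 3.67 with pO2 control and fell by 3.16 without it. The response difference was -6.83 ± 0.10 (SE, adjusted p = 7.7e-09), and all 4 groups were apart.

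Of the 8 leading genes of this kind, 4 act in the assimilation of sulfur or in a step that serves it. YALI0_A01133g (chromosome A, 156015 to 157655) encodes uroporphyrin-III C-methyltransferase, which starts the synthesis of siroheme, the cofactor of sulfite reductase. Its FPKM was 2.12 and 1.99 in pO2-1, 19.3 and 17.8 in pO2-2, 135 and 135 in pO2-UN-2, and 17.0 and 26.7 in pO2-UN-3, a response difference of -5.29 ± 0.28 (SE, adjusted p = 2.5e-06). YALI0_E16368g, the flavoprotein subunit of sulfite reductase, had 69.5 and 71.5 in pO2-1, 270.2 and 262 in pO2-2, 1112 and 1034 in pO2-UN-2, and 209 and 219.9 in pO2-UN-3 FPKM and a response difference of -4.22 ± 0.11 (SE, adjusted p = 1.1e-07). Sulfate adenylyltransferase, which activates sulfate in the first step of the pathway, is encoded by YALI0_B08184g. It was measured at 56.4 and 53.8 in pO2-1, 204 and 203 in pO2-2, 743 and 799 in pO2-UN-2, and 173 and 207 in pO2-UN-3 FPKM, with a response difference of -3.89 ± 0.14 (SE, adjusted p = 5.5e-07). YALI0_D26488g, an arylsulfatase that frees sulfate from sulfate esters, had 5.08 and 2.98 in pO2-1, 21.9 and 24.7 in pO2-2, 65.1 and 50.4 in pO2-UN-2, and 16.1 and 11.5 in pO2-UN-3 FPKM and differed by -4.30 ± 0.35 (SE, adjusted p = 2.2e-05). In all 4 genes both pO2-UN-2 libraries lay above, and both pO2-1 libraries below, every library of the other groups.

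The other subunit of sulfite reductase, the hemoprotein YALI0_D11176g, moved like the flavoprotein. Its FPKM was 73.9 and 73.3 in pO2-1, 198 and 203 in pO2-2, 833 and 846 in pO2-UN-2, and 119 and 152 in pO2-UN-3, with a response difference of -4.07 ± 0.16 (SE, adjusted p = 7.3e-07). Of the 17 genes listed for sulfate assimilation and methionine synthesis, 5 were more negative and 0 more positive, 3 of them with opposite responses, and the median response difference was -1.0 against 0.20 over all genes. The list was drawn up after values had been seen. The other 2 called members were homoserine O-acetyltransferase YALI0_E00836g (-3.04), which prepares homoserine for the uptake of sulfide, and adenylylsulfate kinase YALI0_E00418g (-2.26). The 12 members not called included phosphoadenosine phosphosulfate reductase, YALI0_B08140g, at -1.70, which fell in both cultures.

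Serine supplies the carbon skeleton of cysteine in many organisms, and its first enzyme showed the same form. D-3-phosphoglycerate dehydrogenase YALI0_F09966g (chromosome F, 1348773 to 1350308) had an FPKM of 15.9 and 16.4 in pO2-1, 183 and 189.7 in pO2-2, 1399 and 1539 in pO2-UN-2, and 328 and 262 in pO2-UN-3. Its response difference was -5.77 ± 0.16 (SE, adjusted p = 1.5e-07), with pO2-1 lowest and pO2-UN-2 highest. A second gene with this first hit, YALI0_D25256g, went the other way with 190.0 and 187 in pO2-1, 131 and 124 in pO2-2, 10.8 and 11.9 in pO2-UN-2, and 60.1 and 64.9 in pO2-UN-3 FPKM and a response difference of 2.93 ± 0.14 (SE, adjusted p = 1.5e-06). The chitinase gene YALI0_C08473g, with a weak first hit, and YALI0_F00682g, with a hit to a class of peptidases, completed the 8. Their response differences were -6.48 and -6.15, and their pO2-UN-2 replicates were more than 2-fold apart, at 101 and 242 FPKM in YALI0_C08473g and 554 and 201 in YALI0_F00682g.

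**Figure D3:**
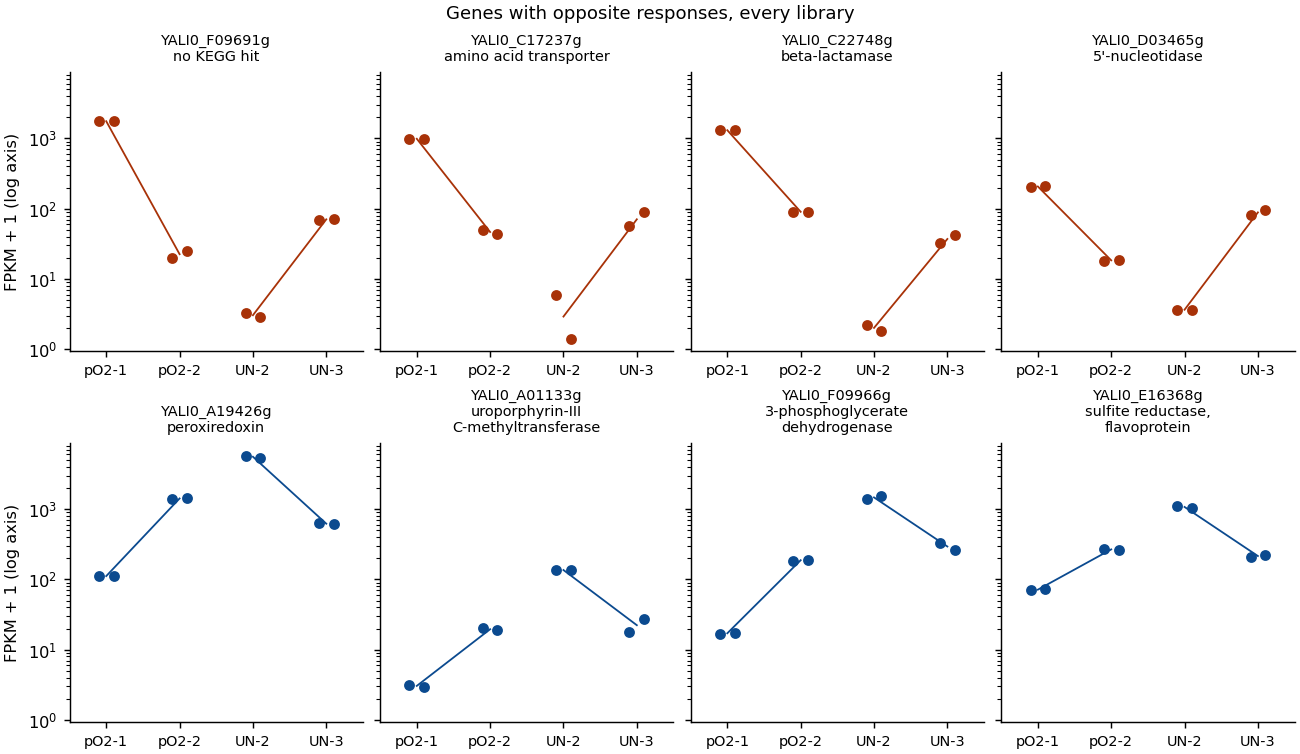
FPKM + 1 on a log axis in each library (points) for 4 genes that rose without and fell with pO2 control (upper row) and 4 of the opposite kind (lower row); lines join the means of log2(FPKM + 1) of a culture. In the upper row pO2-UN-2 (UN-2) is the lowest group and pO2-1 the highest, and in the lower row this order is turned.

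Several of the most positive response differences came from genes that were nearly silent in pO2-UN-2 and abundant in the other 3 groups. YALI0_A00110g, the most positive of all genes tested, lies near the start of its chromosome sequence (chromosome A, 2659 to 5277) and has no KEGG hit. The study names it in a list of transport proteins that includes oligopeptide transporters. Its FPKM was 3704 and 3643 in pO2-1, 2517 and 2585 in pO2-2, 1.22 and 1.13 in pO2-UN-2, and 4959.9 and 4419 in pO2-UN-3, with a response difference of 11.60 ± 0.11 (SE, adjusted p = 7.3e-10). YALI0_D02453g, also without a hit, was measured at 3440.5 and 3619 in pO2-1, 1240.0 and 1290.3 in pO2-2, 0.63 and 0.63 in pO2-UN-2, and 1125 and 1217 in pO2-UN-3 FPKM, where 0.63 is under the level of 3 fragments, and had a response difference of 10.97 ± 0.11 (SE, adjusted p = 7.3e-10). The change with pO2 control was -0.53 in YALI0_A00110g and -1.48 in YALI0_D02453g. The latter is one of the genes that rose without and fell with pO2 control.

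YALI0_F25993g (chromosome F, 3338925 to 3340139), an alpha-1,2-mannosyltransferase by its first hit, adds mannose to the sugar chains of secreted and wall proteins. Its FPKM was 1076 and 1068 in pO2-1, 1969 and 1978 in pO2-2, 1.51 and 1.49 in pO2-UN-2, and 1668 and 1960.1 in pO2-UN-3 and its response difference 8.62 ± 0.13 (SE, adjusted p = 7.7e-09). YALI0_C05709g, with a hit to a class of transaminases, had 754 and 764 in pO2-1, 1017 and 1022 in pO2-2, 6.69 and 6.18 in pO2-UN-2, and 4593 and 3101 in pO2-UN-3 FPKM and differed by 8.56 ± 0.23 (SE, adjusted p = 1.2e-07). YALI0_F30569g, a transporter of the NCS1 family, whose members take up purines, pyrimidines and related compounds, had 941 and 894 in pO2-1, 296 and 301 in pO2-2, 0.85 and 0.28 in pO2-UN-2, and 217 and 291 in pO2-UN-3 FPKM and differed by 8.98 ± 0.27 (SE, adjusted p = 1.9e-07). In YALI0_F25993g and YALI0_C05709g the later controlled group was above the earlier one, whereas in YALI0_F30569g it was below.

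The secreted aspartyl protease gene YALI0_B05654g differed in form from these, since the largest change was with pO2 control. Its FPKM was 4828 and 4853 in pO2-1, 12.6 and 14.7 in pO2-2, 24.4 and 13.9 in pO2-UN-2, and 89.2 and 25.8 in pO2-UN-3. The response difference was 9.71 ± 0.70 (SE, adjusted p = 1.0e-05), of which -8.37 came from the fall with pO2 control, and the rise of 1.34 without it did not pass the test in that culture (adjusted p = 0.064). Its first hit is candidapepsin, the name of the secreted aspartyl proteases of *Candida*. Over the 16 tested genes with this first hit, 4 were more positive and 4 more negative, with a median of 0.15, so the protease family did not move as one. YALI0_A06974g, without a hit, fell strongly in the controlled culture from a very high level and rose in the other. Its values were 5329 and 5241 in pO2-1, 956 and 1011 in pO2-2, 4.76 and 3.26 in pO2-UN-2, and 487 and 665 in pO2-UN-3 FPKM, with a response difference of 9.27 ± 0.25 (SE, adjusted p = 1.2e-07).

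The most negative response differences mostly belonged to genes that were high in pO2-UN-2 alone. YALI0_D24145g, without a KEGG hit, had an FPKM of 1.13 and 1.68 in pO2-1, 2.10 and 3.05 in pO2-2, 1462 and 1169.7 in pO2-UN-2, and 12.2 and 9.65 in pO2-UN-3 and a response difference of -7.36 ± 0.30 (SE, adjusted p = 7.5e-07). The zinc transporter gene YALI0_F15411g (chromosome F, 2077764 to 2079035), of the SLC39 family that brings zinc into the cell, had 2.60 and 5.48 in pO2-1, 0.62 and 0.93 in pO2-2, 400.0 and 405 in pO2-UN-2, and 0.96 and 0.63 in pO2-UN-3 FPKM and differed by -6.37 ± 0.39 (SE, adjusted p = 4.9e-06). It fell in both cultures, by 1.45 with and by 7.82 without pO2 control, and was abundant in pO2-UN-2 alone. YALI0_F25795g, a member of the AAT family of amino acid transporters by a first hit too weak for the lists, was likewise abundant in pO2-UN-2 alone, with 126 and 161 there and at most 2.09 in any other library. Its response difference was -6.11 ± 0.55 (SE, adjusted p = 3.6e-05).

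YALI0_F21384g, YALI0_B01650g and YALI0_E06589g have no KEGG hit and had the same form, with pO2-UN-2 values of 417 and 633, 425 and 306, and 501 and 215 FPKM. Their response differences were -6.95, -6.60 and -6.32. YALI0_D17292g, also without a hit, was instead near 0 in pO2-1 alone, with 0 and 0.76 in pO2-1, 159 and 127 in pO2-2, 50.0 and 60.6 in pO2-UN-2, and 49.7 and 100.29 in pO2-UN-3 FPKM and a response difference of -6.40 ± 0.51 (SE, adjusted p = 1.8e-05).

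Grouped by the function of the first KEGG hit, the more positive genes were frequent among enzymes of amino acid and fat breakdown, and the more negative ones among ribosomal proteins. KEGG Orthology named 719 of the 1172 called genes at an e-value of at most 1e-10 (61.3%), against 59.3% of all genes tested. For 1113 of the called genes the first Blast nr match was the gene's own protein entry with no function, so KEGG was the source of the names. The counts of each list are set against 11.8% more positive and 6.85% more negative over all genes, and no list was tested as a set. All lists were chosen with earlier results of these data known, so their shares are a description and not independent support. The lists are found by words in the descriptions, so a few members do not belong to the pathway.

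**Figure D4:**
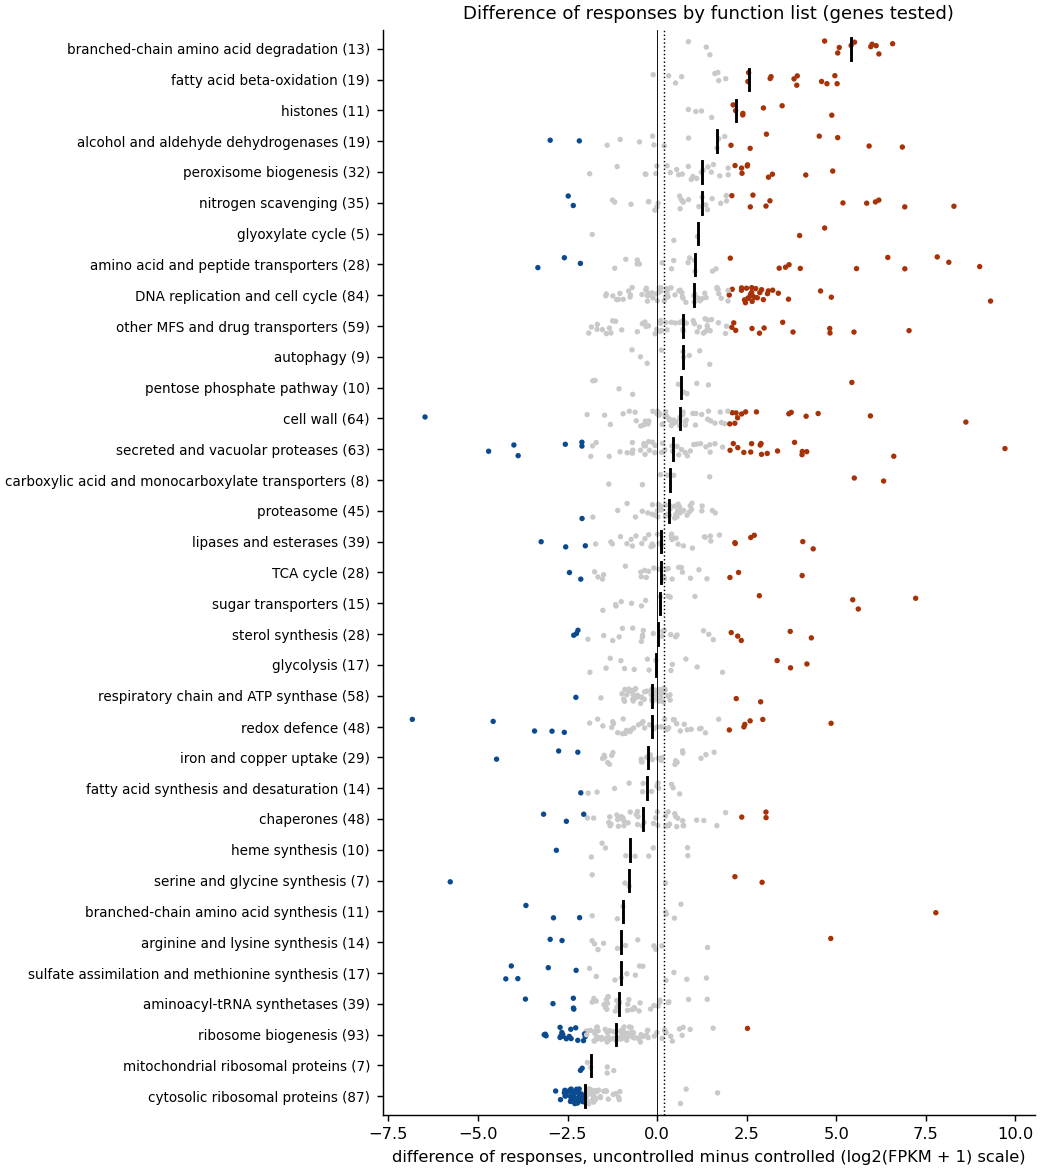
Response difference (x axis, log2(FPKM + 1) scale) of every tested member of each function list with at least 5 tested genes, called genes in red (more positive) or blue (more negative), others in grey, list medians as black bars and the median of all genes, 0.20, as a dotted line. Medians run from -2.02 for cytosolic ribosomal proteins to 5.42 for branched-chain amino acid degradation.

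The degradation of leucine, isoleucine and valine had the highest median of the lists. Of 13 tested genes, 10 were more positive (76.9%) and 0 more negative, 8 of them with opposite responses, and the median response difference was 5.42. The median FPKM of the list was 199 and 196 in pO2-1, 76.9 and 79.4 in pO2-2, 1.74 and 1.86 in pO2-UN-2, and 58.6 and 73.0 in pO2-UN-3. The list median thus went down with pO2 control, and in the uncontrolled culture it went up from its lowest level to near that of pO2-2. Isovaleryl-CoA dehydrogenase, YALI0_E12573g, which oxidises isovaleryl-CoA formed from leucine, had an FPKM of 236 and 238 in pO2-1, 74.3 and 71.5 in pO2-2, 1.14 and 0.96 in pO2-UN-2, and 48.7 and 73.0 in pO2-UN-3, a response difference of 6.58 ± 0.25 (SE, adjusted p = 6.7e-07). The 3 genes for the E1 alpha, E1 beta and E2 parts of the branched-chain keto acid dehydrogenase, the complex that commits the carbon skeletons to breakdown, were YALI0_D08690g (6.19), YALI0_F05038g (6.0) and YALI0_D23815g (6.12).

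Both subunits of 3-methylcrotonyl-CoA carboxylase, YALI0_B14619g and YALI0_E12595g, had response differences of 5.42 and 5.96, methylglutaconyl-CoA hydratase YALI0_F22121g one of 5.51, and hydroxymethylglutaryl-CoA lyase YALI0_B22550g, the last step of leucine breakdown, one of 4.68. Valine breakdown was represented by 3-hydroxyisobutyrate dehydrogenase YALI0_F02607g (5.09) and malonate-semialdehyde dehydrogenase YALI0_C01859g (5.04). The members not called were the 2 branched-chain aminotransferases, YALI0_D01265g at 1.37 and YALI0_F19910g at 0.87, which serve synthesis as well as breakdown, and 3-hydroxyisobutyryl-CoA hydrolase YALI0_D06215g at 1.47. The list kept 10 calls when any one library was left out and under median-of-ratios scaling. Of its 10 genes whose first hit is their own *Y. lipolytica* entry, 8 were called.

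Fatty acid beta-oxidation, which in this yeast runs in peroxisomes and feeds acetyl-CoA into the glyoxylate cycle, had 11 of 19 genes more positive (57.9%) and 0 more negative, with a median of 2.55. Unlike the branched-chain list, its median change with pO2 control was near 0, at 0.03, and the difference lay in a rise of 3.21 without control. Only 1 of the 11 had opposite responses. The list median FPKM was 127 and 124 in pO2-1, 157 and 144 in pO2-2, 5.0 and 5.24 in pO2-UN-2, and 85.5 and 93.2 in pO2-UN-3. Of 6 acyl-CoA oxidases, which start each round and pass electrons directly to oxygen, 5 were called, led by YALI0_D24750g with an FPKM of 165 and 161 in pO2-1, 172 and 169 in pO2-2, 1.43 and 1.88 in pO2-UN-2, and 85.5 and 93.2 in pO2-UN-3 and a response difference of 5.03 ± 0.16 (SE, adjusted p = 3.0e-07). The multifunctional enzyme of the middle steps, YALI0_E15378g, had 323 and 322 in pO2-1, 485 and 489 in pO2-2, 5.0 and 5.24 in pO2-UN-2, and 207 and 237 in pO2-UN-3 FPKM and differed by 4.59 ± 0.13 (SE, adjusted p = 1.5e-07). Acyl-CoA synthetase YALI0_E16016g, which activates fatty acids, was at 0.09 FPKM in both pO2-UN-2 libraries, under the level of 3 fragments, and had a response difference of 4.96 ± 0.15 (SE, adjusted p = 1.9e-07). The acyl-CoA oxidase YALI0_C23859g was the gene with opposite responses, from 127 and 124 to 56.6 and 54.2 FPKM with control and from 8.96 and 6.88 to 102 and 107 without it.

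The peroxins, which build peroxisomes and import their enzymes, had 9 of 32 genes more positive (28.1%) and 0 more negative, with a median of 1.26. Among them were peroxin-19, YALI0_B22660g, needed to insert membrane proteins, with 209 and 203 in pO2-1, 154 and 151 in pO2-2, 7.83 and 5.86 in pO2-UN-2, and 93.7 and 110.4 in pO2-UN-3 FPKM and a response difference of 4.15 ± 0.20 (SE, adjusted p = 1.5e-06), and peroxin-11B, YALI0_C04092g, which acts in peroxisome division, at 3.11. In the list, 19 genes carry peroxin-3 as their first hit, most of them not their own entry and so uncertain as peroxins. Over the 12 members with their own entry, 5 were called, with a median of 1.87. Both malate synthases of the glyoxylate cycle were called, YALI0_E15708g (4.68) and YALI0_D19140g (3.98). YALI0_D19140g was at 0.38 FPKM in both pO2-UN-2 libraries, at the level of 3 fragments, and at 5.29 and 8.69 in pO2-UN-3. With pO2 control it had 68.7 and 68.0 in pO2-1 and 24.2 and 23.6 in pO2-2, above the uncontrolled culture at either time. Isocitrate lyase YALI0_C16885g at 0.47 was not called. The other isocitrate lyase hit, YALI0_F31999g, was at 1.13. The alcohol and aldehyde dehydrogenases had 7 of 19 genes more positive and 2 more negative, led by the aldehyde dehydrogenases YALI0_F04444g (6.85) and YALI0_D07942g (5.92).

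Genes that release or take up nitrogen had 11 of 35 more positive (31.4%) and 2 more negative (5.71%), with a median of 1.26. The list median FPKM was 62.9 and 68.2 in pO2-1, 77.1 and 83.7 in pO2-2, 11.9 and 8.97 in pO2-UN-2, and 61.9 and 66.0 in pO2-UN-3, so that pO2-UN-2 was the lowest group, and the part of nitrogen supply in this was not tested. Amidase YALI0_F16401g, which frees ammonia from amides, had an FPKM of 1939 and 1939 in pO2-1, 556 and 529 in pO2-2, 2.31 and 1.44 in pO2-UN-2, and 211 and 290.3 in pO2-UN-3 and a response difference of 8.29 ± 0.25 (SE, adjusted p = 2.0e-07). The urea-splitting enzyme YALI0_E07271g, urea carboxylase and allophanate hydrolase in one protein, was measured at 647 and 641 in pO2-1, 152 and 152 in pO2-2, 5.70 and 2.35 in pO2-UN-2, and 118 and 152 in pO2-UN-3 FPKM and differed by 6.91 ± 0.40 (SE, adjusted p = 3.6e-06). Both of these rose without and fell with pO2 control, as did nitrilase YALI0_B07359g at 3.04. Enzymes of purine breakdown were also among the called genes, namely urate oxidase YALI0_F09251g (2.60), 5-hydroxyisourate hydrolase YALI0_F22605g (3.15) and allantoinase YALI0_F23243g (2.68). The amidase hit was itself split, since of 8 tested genes 2 were more positive and 2 more negative.

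An ammonium transporter gene had another form, since it rose in both cultures. YALI0_A19228g went from 315 and 306 FPKM in pO2-1 to 1854 and 1838 in pO2-2 and from 0.74 and 0.15 in pO2-UN-2 to 469 and 698 in pO2-UN-3, a response difference of 6.10 ± 0.32 (SE, adjusted p = 2.1e-06). Of 6 genes with this first hit 3 were called, the others of the 3 being YALI0_B13794g (5.85) and YALI0_E27203g (5.19).

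Amino acid and peptide transporters split. Of 28 genes 11 were more positive (39.3%) and 3 more negative (10.7%), and within the AAT family 7 of 17 were more positive and 3 more negative. YALI0_B19492g had an FPKM of 416 and 401 in pO2-1, 93.4 and 94.4 in pO2-2, 1.14 and 1.58 in pO2-UN-2, and 146 and 161 in pO2-UN-3 and a response difference of 8.14 ± 0.17 (SE, adjusted p = 3.5e-08), while YALI0_E10219g, at 752 and 728 in pO2-1, 786 and 783 in pO2-2, 1.13 and 1.0 in pO2-UN-2, and 545 and 448 in pO2-UN-3 FPKM, changed little with pO2 control and differed by 7.82 ± 0.15 (SE, adjusted p = 3.4e-08). Of 7 oligopeptide transporters of the POT family, which import small peptides, 3 were more positive. Secreted and vacuolar proteases had 17 of 63 genes more positive (27.0%) and 6 more negative (9.52%), among them 5 of 9 carboxypeptidase C genes, the vacuolar enzymes that trim peptides, all more positive. The candidapepsin-type gene YALI0_E25784g was among the more negative, with 86.7 and 136 FPKM in pO2-UN-2 and at most 7.02 elsewhere.

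Genes of DNA replication and the cell cycle had 28 of 84 more positive (33.3%) and 0 more negative, with a median of 1.03, and 15 of the 28 had opposite responses. The median change was -0.61 with and 0.63 without pO2 control. The catalytic subunit of DNA polymerase alpha, YALI0_E11869g, which begins new strands, had an FPKM of 171 and 175 in pO2-1, 12.4 and 12.9 in pO2-2, 10.5 and 9.0 in pO2-UN-2, and 22.6 and 24.4 in pO2-UN-3 and a response difference of 4.86 ± 0.17 (SE, adjusted p = 4.7e-07). The large subunit of ribonucleotide reductase, YALI0_F31735g, which makes the building blocks of DNA, was at 540.4 and 538 in pO2-1, 65.0 and 65.4 in pO2-2, 25.7 and 18.4 in pO2-UN-2, and 59.9 and 70.3 in pO2-UN-3 FPKM and differed by 4.56 ± 0.22 (SE, adjusted p = 1.5e-06). DNA polymerase delta, YALI0_A08426g, differed by 3.67. In these genes pO2-1 was several-fold above the other groups, and the rise without control was smaller than the fall with it in the first pair. The highest member of the list, YALI0_D06149g at 9.31, is the recyclin-1 hit described above, a protein of the secretory pathway.

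Histones, which package newly made DNA, had 7 of 11 genes more positive (63.6%) and 0 more negative, with a median of 2.19, and 5 of 11 under median-of-ratios scaling. Histone H4 gene YALI0_F25883g had an FPKM of 4124 and 4117 in pO2-1, 738 and 753 in pO2-2, 367 and 240.5 in pO2-UN-2, and 1479.9 and 1698 in pO2-UN-3, a response difference of 4.88 ± 0.25 (SE, adjusted p = 1.9e-06). H2B, YALI0_E26455g, and H2A, YALI0_E26477g, which lie side by side, differed by 3.49 and 2.97. Linker histone H1, YALI0_B16280g, instead hardly changed with pO2 control and rose by 2.29 without it, with 257 and 256 in pO2-1, 229.5 and 248 in pO2-2, 99.1 and 94.5 in pO2-UN-2, and 505 and 452 in pO2-UN-3 FPKM. Near-identical histone copies can share fragments, so the split between the 5 H4 genes, of which only YALI0_F25883g was called, is uncertain.

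Cytosolic ribosomal proteins had the lowest median of the lists. Of 87 genes, 47 were more negative (54.0%) and 0 more positive, 84 of 87 had a negative response difference, and the median was -2.02. None had opposite responses, since the list rose in both cultures, by a median of 2.87 with and 0.85 without pO2 control. The list median FPKM was 171 and 169 in pO2-1, 1377 and 1379 in pO2-2, 1321 and 1443 in pO2-UN-2, and 2643 and 2468 in pO2-UN-3. The list was lowest in pO2-1 and highest in pO2-UN-3, and pO2-2 and pO2-UN-2 had similar medians. Ribosomal protein S2e, YALI0_E14465g, had an FPKM of 93.2 and 93.5 in pO2-1, 1168 and 1185 in pO2-2, 889 and 1050.1 in pO2-UN-2, and 1715 and 1675 in pO2-UN-3, a response difference of -2.83 ± 0.13 (SE, adjusted p = 1.1e-06). L4e, YALI0_C06820g, stood at 102 and 99.98 in pO2-1, 1188 and 1147 in pO2-2, 893 and 1083 in pO2-UN-2, and 1852 and 1639 in pO2-UN-3 FPKM and differed by -2.70 ± 0.15 (SE, adjusted p = 3.1e-06). The number of calls was 43 to 55 when 1 library was left out and 68 under median-of-ratios scaling, because the list median lies at the minimum of 2.

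Ribosome biogenesis followed with 18 of 93 genes more negative (19.4%) and 1 more positive, with a median of -1.14 and median changes of 2.48 with and 1.26 without pO2 control. Ribosome production factor 2, YALI0_A03905g, needed for the large subunit, had an FPKM of 3.88 and 5.08 in pO2-1, 152 and 153 in pO2-2, 75.6 and 65.3 in pO2-UN-2, and 229.7 and 238 in pO2-UN-3 and a response difference of -3.10 ± 0.19 (SE, adjusted p = 4.3e-06). A U3 snoRNA-associated protein of small subunit processing, YALI0_F20284g, was at 1.58 and 1.33 in pO2-1, 47.9 and 46.6 in pO2-2, 23.3 and 22.4 in pO2-UN-2, and 50.7 and 53.1 in pO2-UN-3 FPKM and differed by -3.15 ± 0.18 (SE, adjusted p = 3.4e-06). All 7 mitochondrial ribosomal proteins in the list had negative response differences, with a median of -1.85, and 2 were called. Aminoacyl-tRNA synthetases, which load amino acids onto tRNA, had 5 of 39 more negative (12.8%) and a median of -1.07. Seryl-tRNA synthetase YALI0_B05918g stood apart from the ribosomal pattern, with 25.9 and 23.9 in pO2-1, 29.4 and 34.1 in pO2-2, 459 and 396 in pO2-UN-2, and 40.8 and 41.5 in pO2-UN-3 FPKM and a response difference of -3.67 ± 0.17 (SE, adjusted p = 1.3e-06), so that pO2-UN-2 alone was high.

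**Figure D5:**
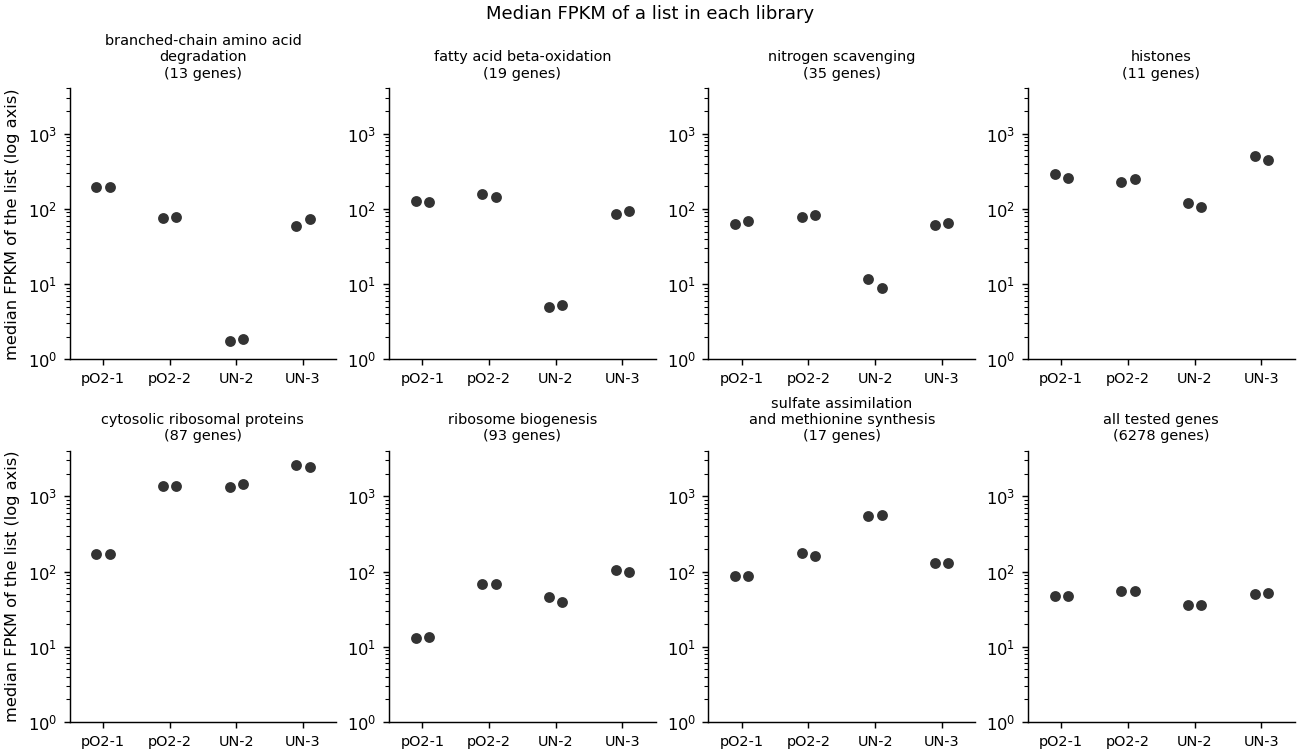
Median FPKM (log axis) of 7 function lists and of all tested genes in each library, with 2 libraries per group. Branched-chain degradation and beta-oxidation drop below 6 FPKM in both pO2-UN-2 (UN-2) libraries, and cytosolic ribosomal proteins are lowest in pO2-1, at 171 and 169 FPKM.

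Other lists of amino acid synthesis, drawn up after values had been seen, held a few called genes each. Branched-chain amino acid synthesis had 3 of 11 genes more negative and 1 more positive. Acetolactate synthase YALI0_C00253g, which opens the pathway, had an FPKM of 26.1 and 24.7 in pO2-1, 134 and 131 in pO2-2, 349.6 and 418 in pO2-UN-2, and 166 and 139.8 in pO2-UN-3 and a response difference of -3.66 ± 0.17 (SE, adjusted p = 1.3e-06), and 3-isopropylmalate dehydratase YALI0_B01364g of the leucine branch differed by -2.89, both with opposite responses. Ketol-acid reductoisomerase YALI0_D03135g was at -2.16. The more positive member, YALI0_B16214g, is a serine or threonine dehydratase by its hit, an enzyme that also breaks down these amino acids. It was listed at 0 FPKM in both pO2-UN-2 libraries and had 77.7 and 68.3 in pO2-UN-3, 209 and 210 in pO2-1 and 70.8 and 68.8 in pO2-2, a response difference of 7.78 ± 0.16 (SE, adjusted p = 3.5e-08).

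Of 14 arginine and lysine synthesis genes, 2 of the lysine pathway were more negative, aminoadipate-semialdehyde dehydrogenase YALI0_E06457g (-2.98) and saccharopine dehydrogenase YALI0_D22891g (-2.65). The acetylornithine deacetylase-type gene YALI0_D17446g was more positive, at 4.85. The median response difference was -0.95 for synthesis and 5.42 for breakdown of branched-chain amino acids. The synthesis list was divided, with 5 of 11 genes positive and 6 negative in sign, whereas all 13 breakdown genes were positive.

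Of the lists tied to oxygen and metals, redox defence and sterol synthesis had calls in both directions, and heme synthesis and iron and copper uptake only more negative ones. Redox defence had 6 of 48 genes more positive (12.5%) and 5 more negative (10.4%), with a median of -0.15. Of the catalases, which split hydrogen peroxide in peroxisomes, YALI0_F30987g was more positive with 682 and 662 in pO2-1, 601 and 614 in pO2-2, 3.97 and 12.4 in pO2-UN-2, and 188 and 242 in pO2-UN-3 FPKM and a response difference of 4.86 ± 0.54 (SE, adjusted p = 1.2e-04), while YALI0_E34749g was more negative with 154 and 156 in pO2-1, 302 and 312 in pO2-2, 556 and 264 in pO2-UN-2, and 65.1 and 75.5 in pO2-UN-3 FPKM and a response difference of -3.42 ± 0.41 (SE, adjusted p = 1.6e-04). Methionine sulfoxide reductase YALI0_B03916g, which repairs oxidised protein, was high in pO2-UN-2 alone, with 4.74 and 3.62 in pO2-1, 1.85 and 2.58 in pO2-2, 86.2 and 105 in pO2-UN-2, and 1.52 and 1.49 in pO2-UN-3 FPKM and a response difference of -4.58 ± 0.29 (SE, adjusted p = 5.5e-06).

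In heme synthesis 8 of 10 genes had a negative response difference and 1 (10%) was called. This was coproporphyrinogen III oxidase YALI0_E29975g, a step that uses molecular oxygen, with 176 and 171 in pO2-1, 48.9 and 49.3 in pO2-2, 2673 and 2342 in pO2-UN-2, and 109.7 and 93.5 in pO2-UN-3 FPKM and a response difference of -2.81 ± 0.15 (SE, adjusted p = 2.1e-06). Sterol synthesis had 5 of 28 more positive (17.9%) and 3 more negative (10.7%), and over the 22 members with their own entry 2 and 2. The more positive members were mostly not enzymes of the pathway, since 3 have a sterol glucosyltransferase as first hit, which adds glucose to finished sterol (YALI0_A08998g at 3.72, YALI0_C04730g at 4.31 and YALI0_D01111g at 2.25), and YALI0_D00176g (2.35) has sterol carrier protein 2. The remaining one, hydroxymethylglutaryl-CoA synthase YALI0_F30481g (2.07), acts early in the pathway. The more negative ones were a further glucosyltransferase hit, YALI0_C16522g (-2.21), the oxygen-using methylsterol monooxygenase YALI0_F11297g (-2.25), and sterol 24-C-methyltransferase YALI0_F08701g at -2.33, with 1996 and 2424 FPKM in pO2-UN-2 and 223 to 515 in the other libraries. Iron and copper uptake had 3 of 29 more negative (10.3%) and 0 more positive. The copper transporter YALI0_C20295g fell in both cultures, with 1071 and 1069.5 in pO2-1, 41.7 and 40.1 in pO2-2, 6107 and 8253 in pO2-UN-2, and 64.9 and 53.5 in pO2-UN-3 FPKM and a response difference of -2.21 ± 0.21 (SE, adjusted p = 4.4e-05), and ferric reductase YALI0_F07040g, which frees iron for uptake, was at 207 and 472 FPKM in pO2-UN-2 and at most 27.6 elsewhere, a response difference of -4.48.

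In central carbon metabolism the shares of called genes were mostly near those of all genes. Glycolysis had 3 of 17 more positive (17.6%) and 0 more negative, with a median of -0.03. Its calls were a triosephosphate isomerase hit, YALI0_F01584g (4.18), and the probable phosphoglycerate mutases YALI0_D16445g (3.72) and YALI0_D09229g (3.35). The pentose phosphate pathway had 1 of 10 more positive (10%) and 0 more negative, with a median of 0.67. That call was the ribose 5-phosphate isomerase B hit YALI0_F01628g (5.44). YALI0_F01584g and YALI0_F01628g lie in the run of erythritol breakdown genes described below. The TCA cycle had 3 of 28 more positive (10.7%) and 2 more negative (7.14%), with a median of 0.12. The respiratory chain and ATP synthase had 2 of 58 and 1. The respiratory list, with a median response difference of -0.14, had 3.45% and 1.72% of its genes called, below the 11.8% and 6.85% of all genes. Its 2 more positive genes, YALI0_C15202g at 2.89 and YALI0_E05599g at 2.21, both have the single-subunit NADH dehydrogenase, not complex I, as first hit. The hit of YALI0_C15202g was weak (e-value 3e-12) and not to its own entry. Under median-of-ratios scaling YALI0_E05599g was at 1.98 and so not called. The more negative gene was YALI0_C17853g at -2.27. Its first hit, NADH dehydrogenase (ubiquinone) Fe-S protein 3, was also weak (e-value 1e-11) and not to its own entry. Among the TCA genes, citrate synthase YALI0_E00638g was more positive with 187 and 207 in pO2-1, 84.5 and 94.9 in pO2-2, 5.29 and 6.25 in pO2-UN-2, and 42.7 and 58.9 in pO2-UN-3 FPKM and a response difference of 4.05 ± 0.24 (SE, adjusted p = 3.7e-06), and aconitase-type gene YALI0_F08877g was more negative at -2.45.

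Of the 3 genes listed for glycerol and glycerol 3-phosphate, 1 was more positive and 0 more negative. Under median-of-ratios scaling the counts were 1 and 1, the added call being YALI0_B13970g. Glycerol kinase YALI0_F00484g, which phosphorylates glycerol, had an FPKM of 1089.9 and 1083 in pO2-1, 462 and 457 in pO2-2, 629.7 and 611 in pO2-UN-2, and 348 and 349.8 in pO2-UN-3 and a response difference of 0.41 ± 0.09 (SE, adjusted p = 5.1e-03), and the mitochondrial glycerol-3-phosphate dehydrogenase YALI0_B13970g, which passes its electrons to the respiratory chain, differed by -1.76. Neither of these genes of glycerol entry was called with the deposited FPKM. The 1 call was the NAD+-dependent glycerol-3-phosphate dehydrogenase YALI0_B02948g, and the direction in which its enzyme worked was not measured. It had 87.6 and 76.9 in pO2-1, 142 and 144 in pO2-2, 11.4 and 8.77 in pO2-UN-2, and 159.6 and 147 in pO2-UN-3 FPKM. Its response difference was 3.01 ± 0.19 (SE, adjusted p = 5.6e-06). Proteasome genes had 0 of 45 more positive and 1 more negative, fatty acid synthesis 0 of 14 and 1, and autophagy 0 of 9 and 0. A list with few calls is not shown to have responded alike in both cultures, since differences under 2 in size are not counted.

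In the transport and cell surface lists nearly all calls were more positive, but medians were closer to that of all genes, 0.20. Sugar transporters had 4 of 15 more positive (26.7%) and 0 more negative, yet a median of 0.09, with 8 positive and 7 negative in sign and 0 of the 3 with their own entry called. Carboxylic acid transporters had 2 of 8 (25%) and 0, with a median of 0.37. Other transporters of the major facilitator and drug efflux families had 12 of 59 (20.3%) and 0, with a median of 0.73, but 1 of the 17 with their own entry and a median of 0.10 over these. Cell wall genes had 14 of 64 (21.9%) and 1 (1.56%), with a median of 0.64. Under median-of-ratios scaling the calls were 4 and 0, 2 and 0, 9 and 2, and 11 and 2 in the same order. YALI0_F18084g, an inositol-type sugar transporter, had 213 and 215 in pO2-1, 206 and 205 in pO2-2, 0.71 and 0.90 in pO2-UN-2, and 223 and 294 in pO2-UN-3 FPKM and a response difference of 7.22 ± 0.19 (SE, adjusted p = 1.2e-07), and YALI0_B19470g, of a family that carries lactate and similar acids, 629 and 621 in pO2-1, 26.5 and 23.8 in pO2-2, 0.89 and 0.88 in pO2-UN-2, and 6.57 and 4.24 in pO2-UN-3 FPKM and a response difference of 6.32 ± 0.26 (SE, adjusted p = 7.9e-07). The hit to MDR-type ABC transporters, which export lipids and toxic compounds, was shared by 14 genes, of which 6 were more positive. Of 9 aquaporin-type genes 4 were more positive and 0 more negative.

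Some of the called genes lay side by side on the chromosomes. Of the 742 more positive genes, 213 (28.7%) had a neighbour called in the same direction, against 20.5% of the other tested genes, and of the 202 with opposite responses 27 (13.4%) had a neighbour of the same kind, against 5.94%. For the 430 more negative genes the shares were 12.3% and 12.9%. These shares were not tested, and overlapping genes can share fragments where counting does not use strand. There were 16 runs of at least 3 more positive genes in a row, with 53 genes in all, and 3 runs of more negative genes.

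A run of 4 on chromosome F, 247294 to 254593, holds the genes known in this yeast for the breakdown of erythritol, annotated here as a triosephosphate isomerase (YALI0_F01584g, 4.18), a dihydroxyacetone kinase (YALI0_F01606g, 3.12), a ribose 5-phosphate isomerase B (YALI0_F01628g, 5.44) and an alcohol dehydrogenase class (YALI0_F01650g, 5.46). YALI0_F01628g had an FPKM of 682 and 671 in pO2-1, 65.5 and 58.4 in pO2-2, 13.5 and 7.38 in pO2-UN-2, and 36.2 and 51.9 in pO2-UN-3. The kinase differed from its neighbours in falling in both cultures, by 4.60 with and 1.48 without pO2 control, while the other 3 rose without it.

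The longest run, of 5 genes on chromosome B from 2858394 to 2868650, includes 4-hydroxyphenylpyruvate dioxygenase YALI0_B21846g, an oxygen-using enzyme of tyrosine breakdown. Its FPKM was 1027 and 1047 in pO2-1, 419 and 371 in pO2-2, 6.55 and 11.1 in pO2-UN-2, and 494 and 579 in pO2-UN-3, a response difference of 7.20 ± 0.28 (SE, adjusted p = 7.1e-07). A run on chromosome B from 1719410 to 1724334 held 3 ribosomal protein genes, LP1 (YALI0_B12804g, -2.35), L13e (YALI0_B12826g, -2.56) and S16e (YALI0_B12848g, -2.40), and was more negative throughout. The genes of these runs were chosen after their values were seen.

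The median of the mean FPKM over the 8 libraries was 61.1 for the more positive and 103 for the more negative genes, against 54.2 for all genes tested. The median distance from the start to the end of a gene was 1329 bp for the more positive and 1030.5 bp for the more negative genes, against 1253.5 bp for all, and no test was made of these differences. Their shares of the 6 chromosomes were near those of all genes, with chromosome E holding 24.7% of the more positive and 20.0% of the more negative genes against 22.8% of all. Genes at the limit of the call differed little across it. YALI0_A01826g and YALI0_F25509g were inside at 2.0008 and -2.0018, and YALI0_E24475g and YALI0_F23397g outside at -1.9979 and 1.9943, values given as a description only.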

How the data were processed

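The deposited tables hold FPKM, which the authors made with Cufflinks, one value per gene and library, from paired-end reads aligned by TopHat2 against the CLIB122 assembly. Whether counting used strand is not given in the sources used here, and near-identical or overlapping genes can share fragments. The tables were joined by locus tag (6363 of 6394 genes in both, 8 only controlled, 23 only uncontrolled, missing values set to 0), and 0 value columns were left unmapped. Between 95.7% and 99.1% of low values lay within 0.1 of a whole number of fragments at the depth found, which was used for floors and replicate noise alone.

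limma 3.58.1 in R 4.3.3 was fitted to log2(FPKM + 1) of all 8 libraries, with 4 group means, empirical Bayes and a variance trend (4 residual degrees of freedom), and each culture's change was fitted on its own 4 libraries (2 residual degrees of freedom). Tests were two-sided, and p-values were adjusted by Benjamini-Hochberg over all 6278 genes. Permuting the labels of 2 against 2 libraries cannot give a p under 0.05. No test was made of lists, which were found by words in the first KEGG hit at an e-value of at most 1e-10.

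Named genes are the 10 most positive and the 10 most negative, the 8 in each direction of opposite response with the largest smaller change, and up to 4 called members of each list, all with a group mean FPKM of at least 5. Other genes named, among them list members that were not called, those of chromosome runs and those of the 4 added lists, were chosen after their values were seen. The members and lists were chosen with earlier results of these data known. Replicate numbers did not pair the libraries (correlation of same-numbered deviations 0.03 with and -0.05 without pO2 control). Figures were made with matplotlib 3.10.9 in Python 3.11.15.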

Additional observations from a re-analysis of the deposited data

Results flagged for a closer look

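The results flagged here are those in which the responses of the cultures to glycerol limitation differed by a direct test, the limma fit of the response difference over all 8 libraries. They were the 742 genes with a more positive and the 430 with a more negative response without pO2 control, and within them the 202 that rose without and fell with control and the 58 that did the reverse.

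The genes with the most positive response differences were YALI0_A00110g (11.60), YALI0_D02453g (10.97), YALI0_F09691g (10.82), the secreted protease YALI0_B05654g (9.71), YALI0_D06149g (9.31), YALI0_A06974g (9.27), the amino acid transporter YALI0_C17237g (9.0045), the NCS1 transporter YALI0_F30569g (8.98), the mannosyltransferase YALI0_F25993g (8.62) and YALI0_C05709g (8.56). The most negative were YALI0_D24145g (-7.36), YALI0_F21384g (-6.95), the peroxiredoxin YALI0_A19426g (-6.83), YALI0_B01650g (-6.60), the chitinase-type gene YALI0_C08473g (-6.48), YALI0_D17292g (-6.40), the zinc transporter YALI0_F15411g (-6.37), YALI0_E06589g (-6.32), YALI0_F00682g (-6.15) and YALI0_F25795g (-6.11).

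Of the genes with opposite responses not already given, YALI0_D03465g (8.09), YALI0_C22748g (8.06), YALI0_F13959g (7.81), YALI0_C18491g (7.03) and YALI0_D23309g (6.61) rose without pO2 control. YALI0_F09966g of serine synthesis (-5.77), YALI0_A01133g of siroheme synthesis (-5.29), the arylsulfatase YALI0_D26488g (-4.30), the sulfite reductase subunit YALI0_E16368g (-4.22) and the sulfate adenylyltransferase YALI0_B08184g (-3.89) fell without it. The uncontrolled replicates varied more than the controlled ones, and the part of this in the calls was addressed by weights for each culture, which gave 739 and 428 calls.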

How the results depend on the processing

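With a minimum response difference of 1 in place of 2, 1627 genes were more positive and 1238 more negative, and with no minimum 2395 and 1824. For the changes in each culture, a minimum of 1 gave 1401 higher and 787 lower genes with pO2 control and 2000 and 829 without it, and no minimum gave 2822 and 2237, and 3023 and 1320. All other alternatives left these counts and those of opposite responses within 1.5 times the reported ones. Leaving out 1 library gave 713 to 753 more positive and 420 to 454 more negative genes, 182 to 213 that rose without and fell with control and 53 to 65 of the reverse kind. In the cultures' own fits it gave 584 to 600 higher and 261 to 270 lower genes with control, and 661 to 768 and 295 to 327 without. With the replicate number as a block 742 and 430 genes were called and 203 and 58 had opposite responses. The numbers do not pair the libraries, so the block carries no further weight. A pseudocount of 0.1 gave 862 and 463 calls.

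Of 2394 values of the 133 named genes under the alternatives, 2387 kept their call and none reversed. The settings with a minimum of 1 or with none, 133 values each, could not remove a call. The named genes were also chosen for the size of their differences, so these counts do not speak for the other called genes. Under median-of-ratios scaling the NADH dehydrogenase YALI0_E05599g fell to 1.98 and YALI0_A21417g to 1.94. Without pO2-UN-2 replicate 1 the response difference was -1.90 for the proteasome gene YALI0_C19382g and -1.97 for YALI0_E18634g, without pO2-UN-2 replicate 2 it was -1.99 for the copper transporter YALI0_C20295g and -1.97 for YALI0_D03135g, and without pO2-UN-3 replicate 2 it was -1.85 for YALI0_C19382g. Fragment numbers limit the genes near 0 in pO2-UN-2, for which the size of the response difference depends on the pseudocount.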
